A study of Mus musculus with 12 samples.

Results

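Mouse genes whose symbol is Zfp followed only by a number were followed as a class of zinc-binding proteins in erythroid cells with lowered zinc supply. A gene was taken as a member when its mean level was at least 5 TPM (a measure of transcript abundance scaled by gene length and library total) in the 3 siControl libraries, which gave 206 members among 376 such genes and 55487 rows in all. The other 170 numbered genes were under 5 TPM, and 52 of them were at 0 in each of the 11 libraries used. All cells were of 1 line, G1E-ER4, made from GATA1-null mouse erythroid progenitors, in which added estradiol switches on an introduced GATA1. The groups were siControl plus DTPA (n = 2), siZIP10 (n = 3), siZIP10 plus DTPA (n = 3) and siControl (n = 3). ZIP10 is a zinc importer encoded by Slc39a10, and DTPA is a chelator that holds zinc outside the cell. Every culture was nucleofected with siRNA in 2 rounds 24 h apart, received 100 nM β-estradiol with the second round, and was harvested 24 h later, and DTPA was present at 25 µM from the estradiol on. No group had zinc added back or another siRNA against Slc39a10, so off-target effects of the siRNA and effects of DTPA on other metals cannot be told apart from those of ZIP10 and zinc. These are bulk RNA values, in which fewer cells of a kind and less RNA per cell cannot be told apart.

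Most proteins of this class carry tandem C2H2 zinc fingers, in each of which a pair of cysteines and a pair of histidines hold a zinc ion that folds the finger and lets it contact DNA. Many also carry a KRAB box, which recruits the corepressor TRIM28 and with it histone methylation and HP1 proteins, and these silence retroelements and other target genes. Their genes arose largely by tandem duplication and lie in runs on a few chromosomes. The number in a mouse Zfp symbol is only a name, so the class also holds proteins of other folds, among them the CCCH protein encoded by Zfp36.

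From the TPM values, 1.96e+07 to 2.47e+07 reads were recovered per library. A further library, labelled siControl plus DTPA replicate 3, held the values of siZIP10 replicate 1 for every gene and was left out. Slc39a10 averaged 21.1 TPM in siControl plus DTPA, 0.627 TPM in siZIP10, 5.10 TPM in siZIP10 plus DTPA and 2.62 TPM in siControl, so the doubly treated cells held more of the transcript than siControl cells. Mt2, a metallothionein gene that zinc induces, averaged 17.1 TPM, 2413 TPM, 22.1 TPM and 2039 TPM in the same order of groups. All 10 erythroid markers checked were expressed (summed to 38691 to 56204 TPM per library). Markers of other cell types summed highest in siZIP10 plus DTPA: the 6 megakaryocyte markers, of which 4 could be tested and Ppbp was at 0, summed to 57.3 to 58.5 TPM, against 16.2 to 17.5 TPM in siControl. The 5 mast cell and basophil markers, with Mcpt8, Fcer1a and Ms4a2 at 0, summed to 20.7 to 22.6 TPM, against 0.832 to 1.26 TPM in siControl. Myeloid markers (Mpo, Elane and Itgam at 0) summed to 5.86 to 6.80 TPM, against 2.33 to 3.32 TPM in siControl. Their part in the results was not tested.

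Levels of the members spanned 5.02 to 292 TPM in siControl, with a median of 18.8 TPM, given as a description, since the members were chosen by their siControl levels. Zfp655 stood highest with 309, 306 and 321 TPM in siZIP10 plus DTPA and 305, 282 and 289.8 TPM in siControl. Next were Zfp790 (251 TPM), Zfp207 (246 TPM), Zfp445 (174 TPM) and Zfp36 (161 TPM) in siControl. Together these 5 made up 18.4% of the summed level, while 48 members were under 10 TPM. Zfp207 encodes a microtubule-binding protein of the mitotic spindle, and Zfp445 a KRAB protein that maintains genomic imprints. Just inside the limit stood Zfp420 (5.02 TPM), Zfp157 (5.02 TPM) and Zfp993 (5.28 TPM), and just outside it Zfp719 (4.96 TPM), Zfp229 (4.94 TPM) and Zfp94 (4.75 TPM). Zfp993 had unequal siControl libraries of 6.80, 2.59 and 6.45 TPM.

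The proteins were read from the longest coding sequence in GENCODE mouse release 21, which was found for 203 members. The finger pattern (C, 2 to 4 residues, C, 12 residues, H, 3 to 5 residues, H) occurred 10 times in the median member and up to 36 times, and in 6 members, Zfp36 among them, it was not found. A KRAB box was found in 98 members. On the chromosomes, 51 members lay on chromosome 7 and 28 on chromosome 17. In runs of at least 5 numbered Zfp genes with gaps of up to 250000 bases lay 85 members, and 76 had no such neighbour. Reads shared by close paralogs within a run can be divided between them in ways that the TPM values do not show. Exons of 21 members overlapped those of another expressed gene, and the strand setting of the counting is not given in the sources used here, so their values are uncertain.

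As a class the transcripts changed little in sum on the TPM scale, and single members moved in both directions. The 206 members summed to 6119 ± 117 TPM in siControl plus DTPA (SD, n = 2), 6345 ± 155 TPM in siZIP10 and 6503 ± 122 TPM in siZIP10 plus DTPA, against 6105 ± 65.5 TPM in siControl (SD, n = 3 each). This was 100.2%, 103.9% and 106.5% of siControl, and 0.603% to 0.660% of all TPM in any library. The sum weighs members by their level, so the rise of Zfp36, given below, counts heavily in it. In siControl plus DTPA the rise of Zfp36 alone exceeded that of the sum. The sum without Zfp36 was not computed. Size factors for median-of-ratios scaling, an alternative to TPM, were 1.02 to 1.03 in siControl and 0.946 to 0.979 in siZIP10 plus DTPA. Division by them would widen the rise of the sum in siZIP10 plus DTPA. The siControl libraries lay at 6034 to 6163 TPM. The doubly treated libraries, at 6365 to 6597 TPM, and the siZIP10 libraries, at 6206 to 6512 TPM, all stood above them. The siControl plus DTPA libraries, at 6036 and 6201 TPM, overlapped siControl. The median member stood at 17.8 ± 0.592 TPM in siControl plus DTPA (SD, n = 2), 18.7 ± 0.709 TPM in siZIP10, 18.3 ± 0.167 TPM in siZIP10 plus DTPA and 18.4 ± 0.337 TPM in siControl (SD, n = 3 each). Every member stayed at 1 TPM or more in each of the 11 libraries, and 199 to 205 of them stayed at 5 TPM or more.

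**Figure D1:**
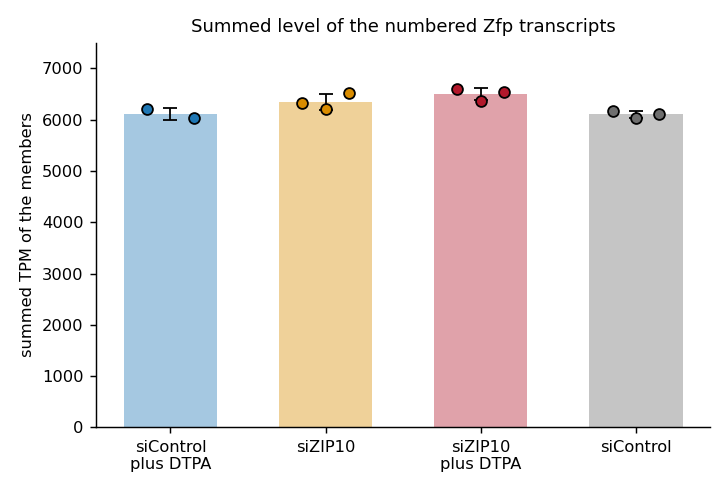
Summed TPM of the 206 members. Points are libraries, bars are group means and error bars are the SD. The siZIP10 plus DTPA libraries lie between 6365 and 6597 TPM, the siZIP10 libraries between 6206 and 6512 TPM and the siControl libraries between 6034 and 6163 TPM.

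Single members were compared with the moderated test of limma on log2(TPM + 1), adjusted over the 11379 genes that averaged 1 TPM or more, and are called higher or lower where the adjusted p was under 0.05. Of the 206 members, 164 were called in at least 1 of 6 comparisons and 42 in none, while 76.6% of all genes tested were called in at least 1 (members, 79.6%). The pair of comparisons that uses no siControl library is independent of the rule that chose the members. Against siZIP10, siZIP10 plus DTPA had 55 members higher and 58 lower, or 54.9%, where 60.4% of all genes tested were called (67.9% of those with at least 5 TPM in siControl). Against siControl plus DTPA, 62 were higher and 34 lower, or 46.6%, where 53.1% of all genes tested were called (60.2% of those with at least 5 TPM). The share of members called was thus under that of all genes tested. By direction, 26.7% of members and 23.1% of all genes tested rose in siZIP10 plus DTPA against siZIP10, and 30.1% and 21.3% rose against siControl plus DTPA. In turn 28.2% of members and 37.3% of all genes tested fell in siZIP10 plus DTPA against siZIP10, and 16.5% and 31.7% fell against siControl plus DTPA.

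The median log2 change of the members was 0.01 against siZIP10 and 0.08 against siControl plus DTPA, beside -0.06 and -0.04 over all genes tested. The first of these was near 0, and its sign turned without siZIP10 replicate 1 (-0.0025), siZIP10 replicate 2 (-0.0076) or siZIP10 plus DTPA replicate 1 (-0.0051). With median-of-ratios scaling in place of TPM the medians were 0.08 and 0.13. It gave 75 members higher and 43 lower against siZIP10, and 84 higher and 26 lower against siControl plus DTPA. Over all genes tested the medians under that scaling were 0.007 and 0.009. It called 29.9% of all genes tested higher and 31.5% lower against siZIP10, and 26.8% and 27.9% against siControl plus DTPA. The members also spread less than other genes of at least 5 TPM: their log2 changes had an SD of 0.322 against siZIP10 and 0.259 against siControl plus DTPA, beside 0.529 and 0.484 in the other genes, a difference that was not tested.

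**Figure D2:**
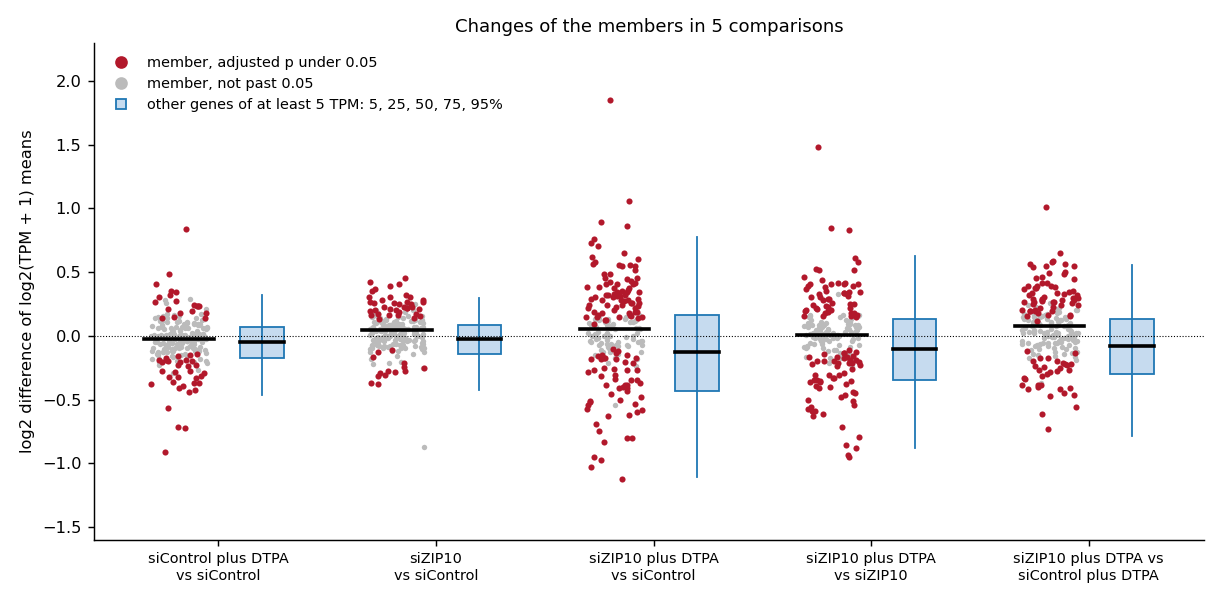
Log2 changes of the members in 5 comparisons (points, red where the adjusted p was under 0.05), beside the other genes of at least 5 TPM in siControl (boxes span 25% to 75%, lines 5% to 95%). Thick bars are medians. The members' medians lie between -0.03 and 0.08, and their points spread on both sides of 0.

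The 3 comparisons with siControl share its libraries with the rule and with each other, so their counts stand side by side as a description. With DTPA alone 20 members were higher and 34 lower (26.2%, where 28.8% of all genes tested were called, 9.98% higher and 18.8% lower), at a median of -0.03. With siZIP10 alone 38 were higher and 14 lower (25.2%, where 30.6% of all genes tested were called, 13.1% higher and 17.5% lower), at a median of 0.05. With both, 79 were higher and 54 lower (64.6%, where 66.6% of all genes tested were called, 26.7% higher and 39.9% lower), at a median of 0.05. Within 0.1 of no change on the log2 scale lay 93 members with DTPA (45.1%, beside 38.0% of all genes tested), 108 with siZIP10 (52.4% beside 41.4%) and 48 with both (23.3% beside 17.2%). With both treatments, 2 members rose and 2 fell at least 2-fold. Under median-of-ratios scaling the counts were 32 higher and 23 lower with DTPA, 45 and 15 with siZIP10, and 97 and 38 with both, and the median with DTPA turned to 0.01. The DTPA counts moved with single libraries, to 6 higher and 18 lower without siControl plus DTPA replicate 1, 15 and 14 without its replicate 2, and 14 and 21 without siControl replicate 3. The shares of all genes tested moved as well, to 6.09% higher and 14.3% lower, 7.91% and 11.5%, and 8.88% and 15.7%. With siZIP10, 25 were higher without siZIP10 replicate 3, and 7, 8 and 8 lower without siZIP10 replicate 1, siZIP10 replicate 2 and siControl replicate 3. In the same fits 9.85% of all genes tested were higher, and 14.6%, 13.7% and 14.0% lower. Choosing the members on the 8 other libraries exchanged 3 of the 206.

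**Figure D3:**
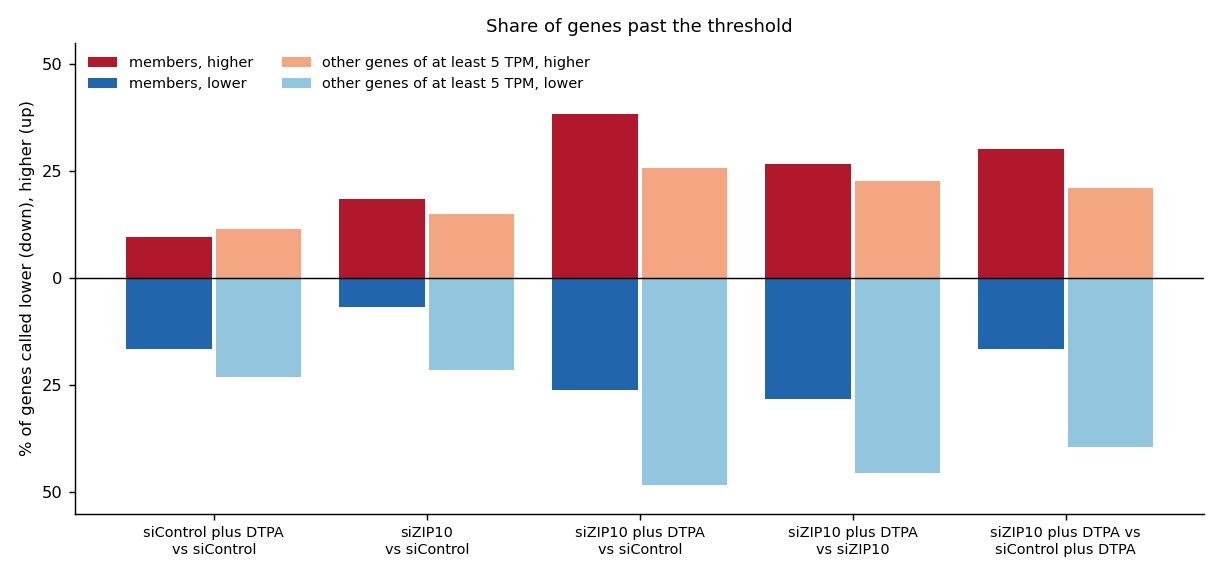
Percent of genes called higher (up) and lower (down) in 5 comparisons, for the 206 members (dark) and the 8710 other genes of at least 5 TPM in siControl (light). In siZIP10 plus DTPA against siControl, 38.3% of members were higher and 26.2% lower, beside 25.8% and 48.2% of the other genes.

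Zfp27 showed the widest change of any member. It is a KRAB gene with 21 fingers (ENSMUSG00000062040.14, chr7:29893333-29906572, minus strand, GRCm38). It stood at 15.8 and 15.2 TPM in siControl plus DTPA, 11.3, 10.4 and 11.0 TPM in siZIP10, and 33.4, 32.1 and 31.1 TPM in siZIP10 plus DTPA, against 8.81, 8.23 and 7.64 TPM in siControl. No pair of groups overlapped, and the doubly treated cells held 391% of the siControl level. Zfp27 rose with DTPA (log2 change 0.84, SE 0.06, limma adjusted p = 8.47e-06), with siZIP10 (0.37, SE 0.06, limma adjusted p = 0.000796) and with both (1.85, SE 0.06, limma adjusted p = 5.28e-10). Within siZIP10 cells DTPA raised it by 1.48 (SE 0.06, limma adjusted p = 4.87e-09), and the interaction, the DTPA change in siZIP10 cells minus that in siControl cells, was 0.64 (SE 0.09, limma adjusted p = 0.000251).

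Zfp36, which encodes the CCCH protein tristetraprolin that binds AU-rich elements and speeds mRNA decay, was called higher in the same comparisons at a higher level. It had 219 and 208 TPM in siControl plus DTPA, 187, 184 and 189.5 TPM in siZIP10, and 351, 332 and 325 TPM in siZIP10 plus DTPA, against 156, 164 and 162 TPM in siControl. Each group stood apart from the others. The log2 change was 0.41 with DTPA, 0.21 with siZIP10 and 1.06 with both (SE 0.03, limma adjusted p = 6.42e-10), and the interaction was 0.44 (SE 0.05, limma adjusted p = 8.48e-05). An exon of Zfp36 overlaps Gm44710, so reads of the pair may be mixed. Zfp420, a gene with 19 fingers in the same run as Zfp27, had 6.78 and 6.12 TPM in siControl plus DTPA, 5.41, 4.83 and 5.62 TPM in siZIP10, and 10.2, 10.2 and 10.1 TPM in siZIP10 plus DTPA, against 5.51, 4.85 and 4.71 TPM in siControl. The doubly treated libraries stood above all others, with a log2 change of 0.83 against siZIP10 (SE 0.08, limma adjusted p = 4.13e-06) and 0.59 against siControl plus DTPA (SE 0.09, limma adjusted p = 0.000196). Zfp692 averaged 14.9 ± 2.23 TPM in siControl plus DTPA (SD, n = 2), 12.4 ± 0.942 TPM in siZIP10 and 19.6 ± 1.89 TPM in siZIP10 plus DTPA, against 10.4 ± 1.61 TPM in siControl (SD, n = 3 each), and rose with both (0.86, limma adjusted p = 5.23e-05). Its rise with DTPA alone (0.48, limma adjusted p = 0.0158) lost the threshold without siControl plus DTPA replicate 1 (0.34, limma adjusted p = 0.152) and without siControl replicate 3 (0.41, limma adjusted p = 0.0512).

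**Figure D4:**
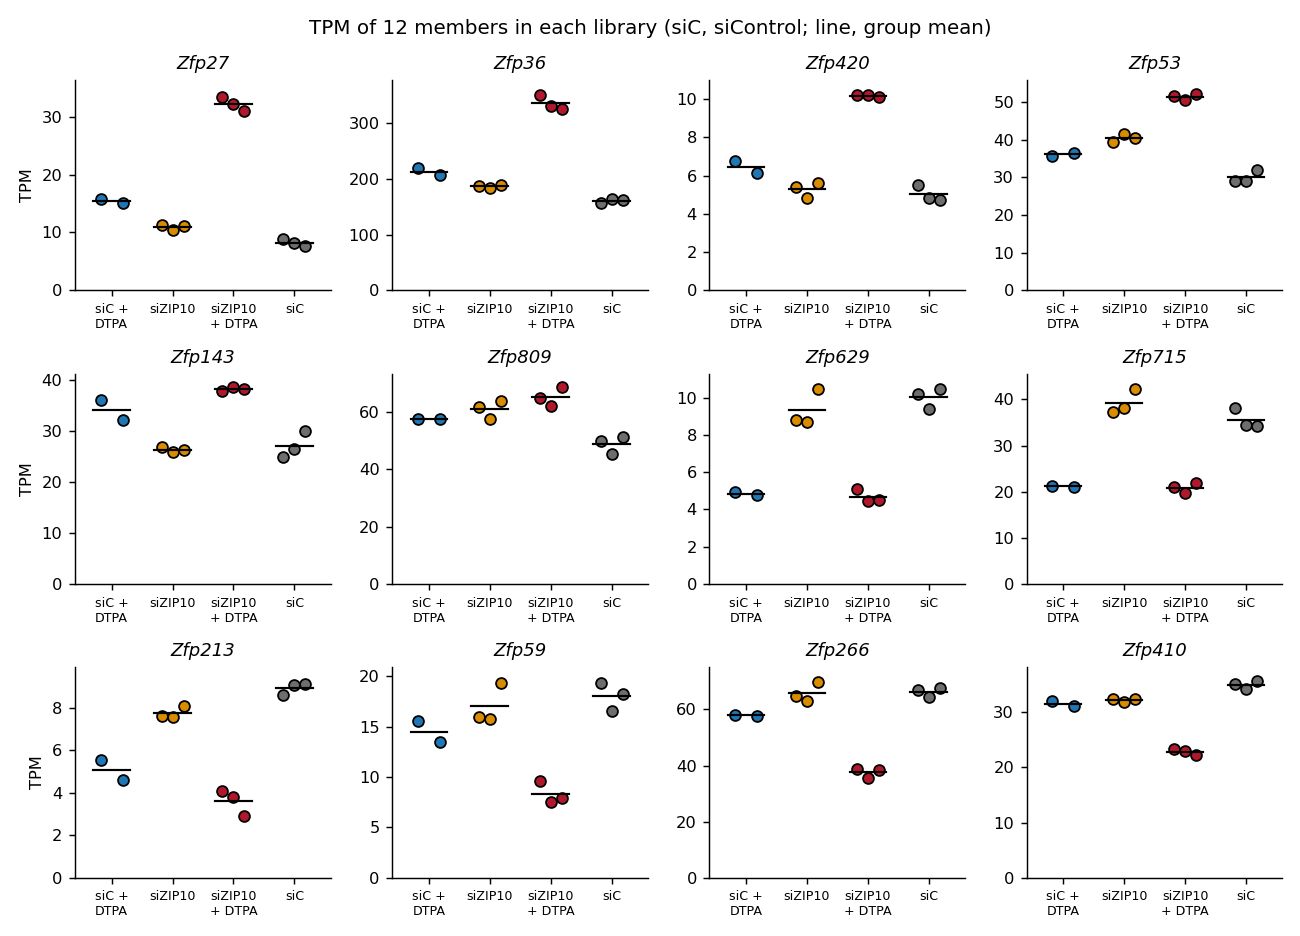
TPM of 12 members in each library, with group means as lines and axes from 0. Zfp27, Zfp36 and Zfp420 were highest in siZIP10 plus DTPA, Zfp629, Zfp715 and Zfp213 were low in both DTPA groups, and Zfp59, Zfp266 and Zfp410 were lowest in siZIP10 plus DTPA.

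Other members were lower wherever DTPA was present, with or without the knockdown. Zfp629, with 19 fingers, had 4.91 and 4.78 TPM in siControl plus DTPA and 5.10, 4.43 and 4.51 TPM in siZIP10 plus DTPA, against 8.79, 8.71 and 10.4 TPM in siZIP10 and 10.2, 9.36 and 10.4 TPM in siControl. It fell by 0.91 on the log2 scale in siControl cells (SE 0.09, limma adjusted p = 5.52e-05) and by 0.86 in siZIP10 cells (SE 0.08, limma adjusted p = 5.9e-06). Zfp715, a KRAB gene with 18 fingers, had 21.3 and 20.9 TPM in siControl plus DTPA and 21.0, 19.8 and 21.8 TPM in siZIP10 plus DTPA, against 37.4, 38.1 and 42.3 TPM in siZIP10 and 38.1, 34.5 and 34.3 TPM in siControl. Neither DTPA group overlapped the group without DTPA, and Zfp715 fell by 0.72 in siControl cells (limma adjusted p = 2.48e-05) and by 0.88 in siZIP10 cells (limma adjusted p = 2.89e-07). Zfp213, with 5 fingers, had 5.56 and 4.59 TPM in siControl plus DTPA and 4.07, 3.81 and 2.90 TPM in siZIP10 plus DTPA, against 7.62, 7.56 and 8.07 TPM in siZIP10 and 8.61, 9.10 and 9.13 TPM in siControl. With both treatments it fell by 1.12 (SE 0.10, limma adjusted p = 2.81e-06), the largest fall of a member in that comparison. Zfp472, a KRAB gene, averaged 19.9 ± 1.35 TPM in siControl plus DTPA (SD, n = 2), 23.0 ± 1.26 TPM in siZIP10 and 15.0 ± 1.57 TPM in siZIP10 plus DTPA, against 27.4 ± 0.925 TPM in siControl (SD, n = 3 each). It fell with DTPA in siControl cells (-0.44, limma adjusted p = 0.00194) and in siZIP10 cells (-0.59, limma adjusted p = 3.55e-05). It was also lower with siZIP10 alone (-0.24, limma adjusted p = 0.0252), a call lost in 5 of 16 refits, among them those without siZIP10 replicate 2 (0.0862), siZIP10 replicate 3 (0.0652), siControl replicate 1 (0.0783) or siControl replicate 2 (0.0603) (limma adjusted p in parentheses). Zfp763, in the same run on chromosome 17 as Zfp472, averaged 4.29 ± 0.720 TPM in siControl plus DTPA (SD, n = 2), 6.26 ± 1.18 TPM in siZIP10 and 3.85 ± 0.658 TPM in siZIP10 plus DTPA, against 6.89 ± 1.37 TPM in siControl (SD, n = 3 each). In siZIP10 cells it fell with DTPA (-0.58, limma adjusted p = 0.011). Its change of -0.57 with DTPA in siControl cells (limma adjusted p = 0.0413) missed the threshold in 8 of 16 refits, among them those without siControl plus DTPA replicate 1 (0.244), siControl plus DTPA replicate 2 (0.0652), siZIP10 plus DTPA replicate 3 (0.0537), siZIP10 replicate 3 (0.0552), siControl replicate 1 (0.117) or siControl replicate 3 (0.107) (limma adjusted p in parentheses).

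Zfp954 and Zfp959, both KRAB genes, rose with DTPA in siControl cells. Zfp954 had 93.1 and 86.3 TPM in siControl plus DTPA, against 66.2, 70.1 and 74.0 TPM in siControl (0.35, SE 0.06, limma adjusted p = 0.00198). Zfp959 had 32.2 and 32.0 TPM in siControl plus DTPA, against 26.1, 25.1 and 24.1 TPM in siControl (0.34, SE 0.06, limma adjusted p = 0.00239). Neither overlapped between these groups. In siZIP10 cells Zfp959 rose by 0.46 (limma adjusted p = 4.34e-05) and Zfp954 by 0.15 (limma adjusted p = 0.0379), although the call of Zfp954 was lost in 7 of 16 refits, among them those without siZIP10 plus DTPA replicate 1 (0.137), siZIP10 plus DTPA replicate 3 (0.0624), siZIP10 replicate 1 (0.0815), siZIP10 replicate 3 (0.139) or siControl replicate 2 (0.0502) (limma adjusted p in parentheses).

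With siZIP10 alone no member moved past 0.5 on the log2 scale with an adjusted p under 0.05. The members with the largest rises were Zfp945, Zfp53, Zfp983, Zfp938 and Zfp27, all of them KRAB genes. Called falls held KRAB genes too: of the 98 members with the box 22 were higher and 8 lower. Of the 105 without it 15 were higher and 6 lower, and the split was not tested. Of all genes tested, 13.1% were higher and 17.5% lower. Zfp53 had 39.4, 41.4 and 40.5 TPM in siZIP10 and 29.0, 29.0 and 31.8 TPM in siControl (0.42, SE 0.04, limma adjusted p = 3.46e-05). Zfp945 had 16.5, 16.1 and 17.2 TPM in siZIP10 and 12.4, 11.7 and 11.5 TPM in siControl (0.46, SE 0.06, limma adjusted p = 0.000286). In neither did the groups overlap. Both were also higher under DTPA, in siZIP10 plus DTPA against siControl plus DTPA: Zfp53 by 0.50 (limma adjusted p = 5.41e-06) and Zfp945 by 0.49 (limma adjusted p = 0.000115). Among the falls, Zfp526 had 54.4, 49.3 and 49.5 TPM in siZIP10 plus DTPA and 41.5, 35.3 and 35.7 TPM in siZIP10, against 46.6, 52.7 and 47.8 TPM in siControl (siZIP10 against siControl -0.38, SE 0.07, limma adjusted p = 0.00211). It was low in siZIP10 alone, and siZIP10 plus DTPA overlapped siControl. Zfp639 had 13.4, 12.4 and 15.4 TPM in siZIP10 plus DTPA and 14.6, 14.7 and 14.4 TPM in siZIP10, against 20.6, 18.4 and 18.4 TPM in siControl, and both groups lay below siControl (siZIP10 against siControl -0.37, SE 0.07, limma adjusted p = 0.00325). Zfp101 averaged 12.8 ± 0.871 TPM in siZIP10 and 16.0 ± 0.395 TPM in siControl (SD, n = 3 each; -0.30, limma adjusted p = 0.00355). The falls of Zfp81 (-0.31, limma adjusted p = 0.0275) and Zfp64 (-0.29, limma adjusted p = 0.017) rested on single libraries. That of Zfp81 was lost without siZIP10 replicate 1 (0.0913), siZIP10 replicate 2 (0.0501), siControl replicate 1 (0.08) or siControl replicate 3 (0.0795), and that of Zfp64 without siZIP10 replicate 1 (0.0515) or siControl replicate 3 (0.0655), with the limma adjusted p in parentheses.

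A further group of members was lowest when both treatments were combined. Zfp59, a KRAB gene with 16 fingers, had 15.6 and 13.4 TPM in siControl plus DTPA, 16.0, 15.8 and 19.3 TPM in siZIP10, and 9.59, 7.49 and 7.93 TPM in siZIP10 plus DTPA, against 19.3, 16.5 and 18.2 TPM in siControl. The doubly treated libraries lay under all others, at 46.3% of siControl, and the change was -0.95 against siZIP10 (SE 0.10, limma adjusted p = 1.66e-05) and -0.73 against siControl plus DTPA (SE 0.12, limma adjusted p = 0.00036). Zfp266, a KRAB gene with 9 fingers, had 58.1 and 57.7 TPM in siControl plus DTPA, 64.7, 63.0 and 69.8 TPM in siZIP10, and 38.7, 35.7 and 38.4 TPM in siZIP10 plus DTPA, against 67.0, 64.4 and 67.5 TPM in siControl. It was likewise lowest in the doubly treated libraries and fell by 0.79 against siZIP10 (SE 0.04, limma adjusted p = 7.31e-08) and by 0.61 against siControl plus DTPA (SE 0.05, limma adjusted p = 2.19e-06). Zfp930 averaged 14.6 ± 0.386 TPM in siControl plus DTPA (SD, n = 2), 16.4 ± 0.537 TPM in siZIP10 and 9.57 ± 0.528 TPM in siZIP10 plus DTPA, against 19.8 ± 2.03 TPM in siControl (SD, n = 3 each; -0.97, limma adjusted p = 4.36e-07 with both). Zfp948 and Zfp672 were also among the 5 lowest in siZIP10 plus DTPA against siControl plus DTPA, at -0.46 and -0.48 (limma adjusted p = 5.15e-05 and 0.000539). In the other direction, Zfp382 and Zfp329 followed Zfp27, Zfp36 and Zfp420 in that comparison. Zfp382 had 17.3, 13.5 and 15.3 TPM in siZIP10 plus DTPA and 9.45 and 10.4 TPM in siControl plus DTPA (0.58, SE 0.10, limma adjusted p = 0.00089). Zfp329 had 48.0, 44.1 and 44.9 TPM in siZIP10 plus DTPA and 30.7 and 30.3 TPM in siControl plus DTPA (0.57, SE 0.06, limma adjusted p = 2.35e-05). Neither overlapped between these groups.

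The change with DTPA was set side by side in siZIP10 cells and in siControl cells, a pair of comparisons that shares no library. Of the members, 17 rose and 23 fell in both, while 7.77% of all genes tested rose and 16.4% fell in both. Zfp788, named after its values were seen, was higher in siZIP10 cells (0.19) and lower in siControl cells (-0.20), and the call in siControl cells was lost in 6 of 16 refits, among them those without siControl plus DTPA replicate 2 (0.293), siControl replicate 2 (0.0837) or siControl replicate 3 (0.0885), with the limma adjusted p in parentheses. The changes had the same sign in 151 members, or 73.3%, beside 74.0% of all genes tested. Pearson's r over the 206 members was 0.737 and Spearman's rho 0.639, beside 0.602 and 0.608 over all genes tested, as a description across genes, which share their libraries and are not independent. The interaction was called in 49 members, 27 above and 22 below 0, or 23.8%, where 32.4% of all genes tested were called, 12.0% above and 20.4% below 0. Under median-of-ratios scaling it was above 0 in 45 and below in 14, beside 15.9% and 18.6% of all genes tested. Leaving out siControl plus DTPA replicate 2 left 10 above 0, and 14 were below 0 without either siControl plus DTPA library, siControl replicate 3 or siZIP10 replicate 3. Of all genes tested, 8.32% were above 0 without siControl plus DTPA replicate 2. In the fits just named 15.8% to 18.2% of all genes tested were below 0. Besides Zfp27 and Zfp36, the largest called interactions were above 0 for Zfp420 (0.53), Zfp345 (0.52) and Zfp81 (0.46), and below 0 for Zfp59 (-0.65), Zfp266 (-0.60), Zfp972 (-0.52), Zfp444 (-0.47) and Zfp773 (-0.43). That of Zfp972 was lost in 13 of 16 refits, among them those without siControl plus DTPA replicate 1 (0.0841), siControl plus DTPA replicate 2 (0.132), siZIP10 plus DTPA replicate 1 (0.0912), siZIP10 plus DTPA replicate 3 (0.0889), siZIP10 replicate 1 (0.0772), siZIP10 replicate 2 (0.0548), siZIP10 replicate 3 (0.0863), siControl replicate 1 (0.0541) or siControl replicate 3 (0.0708) (limma adjusted p in parentheses). That of Zfp81 was lost in 7 of 16 refits, among them those without siControl plus DTPA replicate 1 (0.095), siControl plus DTPA replicate 2 (0.0563), siZIP10 replicate 1 (0.061), siControl replicate 1 (0.0576) or siControl replicate 3 (0.0587) (limma adjusted p in parentheses), and that of Zfp345 was lost without siControl plus DTPA replicate 2 (0.44, limma adjusted p = 0.0649). The siRNA was likewise compared with and without DTPA: 25 members rose and 10 fell in both, while 7.31% of all genes tested rose and 13.3% fell in both. Zfp444 was lower with DTPA (-0.27) and higher without it (0.20), and the call without DTPA was lost in 3 of 16 refits, among them those without siZIP10 replicate 1 (0.0519) or siZIP10 replicate 2 (0.0729) (limma adjusted p in parentheses).

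**Figure D5:**
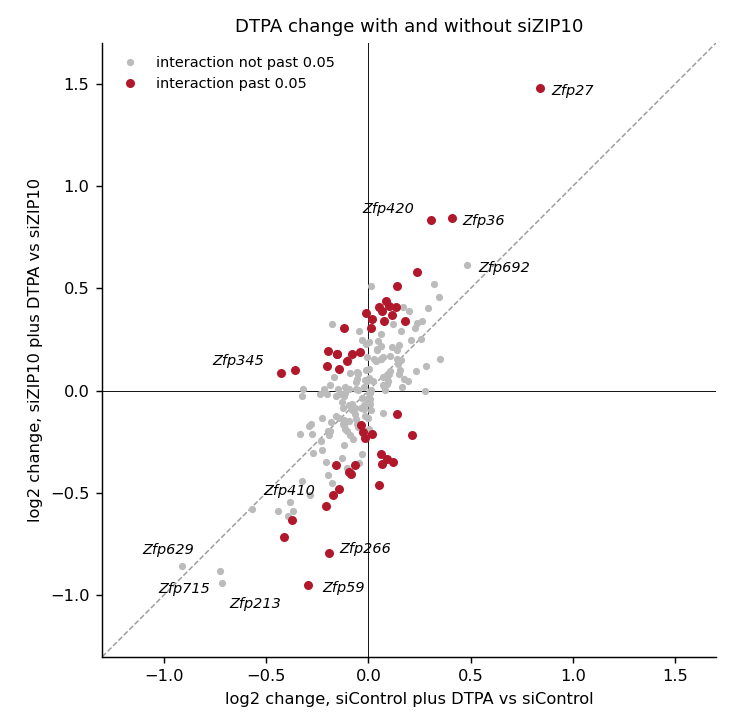
Log2 change of each member with DTPA in siZIP10 cells (vertical) and in siControl cells (horizontal). The dashed line marks equal changes and red points are the 49 members with a called interaction, of which Zfp27 (1.48 and 0.84) and Zfp59 (-0.95 and -0.29) lie far from the line.

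The bases upstream of the start are shown for the 3 members with the largest rises in the doubly treated cells and for Zfp59 and Zfp266, which fell there. The member with the largest fall against siControl, Zfp213, is not shown. They are 250 bases before the RefSeq start (GRCm38.p6), 5′ to 3′ on the gene's strand, and a RefSeq start was found for 176 of the 206 members. Capitals mark, in all 5 sequences, GATA matches (AGATAA or AGATAG, or the same with T as the first base, on either strand) and matches to the core of the metal response element (TGCACNC or TGCGCNC, on either strand). GATA matches numbered 1 in Zfp27, 1 in Zfp36 and 1 in Zfp59, and 0 in Zfp420 and Zfp266. Core matches numbered 1 in Zfp59 and 1 in Zfp266, and 0 in Zfp27, Zfp36 and Zfp420. Zfp213 (-1.12 in siZIP10 plus DTPA against siControl) had no core match in the wider window used below. The difference between the rising and falling members shown thus depends on which members were printed. GATA1 binds GATA motifs in erythroid genes, and the zinc sensor MTF1 binds metal response elements in genes such as Mt2. The windows are chr7:29906533-29906782 on the minus strand for Zfp27, chr7:28379229-28379478 on the minus strand for Zfp36, chr7:29859762-29860011 on the plus strand for Zfp420, chr7:27838334-27838583 on the plus strand for Zfp59 and chr9:20521420-20521669 on the minus strand for Zfp266.
Zfp27: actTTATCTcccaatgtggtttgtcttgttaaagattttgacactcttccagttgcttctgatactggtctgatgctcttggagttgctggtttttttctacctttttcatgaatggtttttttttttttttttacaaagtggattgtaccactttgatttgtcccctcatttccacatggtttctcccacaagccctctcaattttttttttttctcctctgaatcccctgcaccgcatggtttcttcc
Zfp36: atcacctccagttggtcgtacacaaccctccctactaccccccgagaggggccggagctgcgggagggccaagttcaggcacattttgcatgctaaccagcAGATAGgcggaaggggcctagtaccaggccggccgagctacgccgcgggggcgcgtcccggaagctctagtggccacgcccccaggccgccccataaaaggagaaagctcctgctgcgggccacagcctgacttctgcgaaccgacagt
Zfp420: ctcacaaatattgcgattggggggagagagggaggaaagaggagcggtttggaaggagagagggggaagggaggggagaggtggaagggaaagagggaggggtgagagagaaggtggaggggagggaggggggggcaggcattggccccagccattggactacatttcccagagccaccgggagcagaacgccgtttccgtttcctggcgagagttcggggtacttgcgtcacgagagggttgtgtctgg
Zfp59: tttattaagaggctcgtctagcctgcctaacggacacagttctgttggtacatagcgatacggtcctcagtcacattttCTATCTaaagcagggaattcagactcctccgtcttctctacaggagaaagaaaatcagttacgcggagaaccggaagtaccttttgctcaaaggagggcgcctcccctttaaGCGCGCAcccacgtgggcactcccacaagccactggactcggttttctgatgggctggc
Zfp266: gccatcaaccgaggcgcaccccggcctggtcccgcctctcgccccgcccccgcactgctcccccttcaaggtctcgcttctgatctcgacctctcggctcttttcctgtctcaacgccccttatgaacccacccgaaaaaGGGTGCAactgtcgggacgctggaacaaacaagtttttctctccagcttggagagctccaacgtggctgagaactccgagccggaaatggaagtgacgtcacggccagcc

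These windows differed in composition: GC made up 38.4% in Zfp27 and 64.8% in Zfp36. Over 300 bases around each RefSeq start (250 before and 50 after), the metal response core occurred in 31.8% of the members with an entry, in 40.8% of tested genes and in 28.2% of all genes with one. GATA occurred in 25.6%, 21.5% and 33.0%. In siZIP10 plus DTPA against siZIP10, 12 of the 56 members with the metal response core were higher and 25 lower, while 36 of the 120 without it were higher and 22 lower. Thus 44.6% and 18.3% fell, beside 42.6% and 40.7% of all tested genes split in the same way. Under median-of-ratios scaling the members' counts were 14 and 19 with the core and 52 and 15 without it. Under that scaling 29.9% of all genes tested were higher and 31.5% lower. A match is only a run of letters in this window, and the split was not tested.

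In siZIP10 plus DTPA against siZIP10, some runs of neighbouring genes held members called in opposite directions, and the run on chromosome 6 did not. In the run of 15 numbered genes on chromosome 7 that holds Zfp27 and Zfp420 (chr7:29768552-30169750), 10 were members, of which 5 were higher and 3 lower in siZIP10 plus DTPA against siZIP10. In it, Zfp790 averaged 289 ± 5.35 TPM in siZIP10 plus DTPA and 259.8 ± 8.55 TPM in siZIP10 (SD, n = 3 each), a rise of 0.16 (limma adjusted p = 0.000742). Zfp568, a KRAB gene that silences a placental Igf2 transcript in mouse and is named after its values were seen, averaged 15.8 TPM in siZIP10 plus DTPA and 21.9 TPM in siZIP10 and fell by 0.44 (limma adjusted p = 7.87e-06). The run of 18 genes on chromosome 17 (chr17:21383748-22456689) held 12 members, all with a KRAB box, of which 3 were higher and 3 lower. In the run of 8 on chromosome 6 (chr6:47819266-48086593), 4 of 6 members were lower and 0 higher. Against siControl plus DTPA, 3 members of that run were lower and 1 higher. Over all genes tested, 23.1% were higher and 37.3% lower in siZIP10 plus DTPA against siZIP10.

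Fingers and the KRAB box were set against the same comparison, siZIP10 plus DTPA against siZIP10, with no test of the splits. Over all genes tested, 23.1% were higher and 37.3% lower there (29.9% and 31.5% under median-of-ratios scaling). Members with a KRAB box were higher in 21 and lower in 27 of 98, and those without one in 34 and 30 of 105, both at a median of 0.01. By fingers, 31 were higher and 26 lower among the 107 with 10 or more, and 22 and 29 among the 90 with 1 to 9. Under median-of-ratios scaling these counts were 31 and 19 with a KRAB box, 43 and 24 without one, 39 and 20 with 10 or more fingers, and 32 and 21 with fewer. The 21 members with overlapping exons were higher in 11 and lower in 3, and without them 44 were higher and 55 lower. Under median-of-ratios scaling the members with overlapping exons were higher in 13 and lower in 3, and the balance of the others turned, to 62 higher and 40 lower.

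Members with a known role were listed by function, and 35 of the 43 names listed were members. In siZIP10 plus DTPA against siZIP10, 9 of them were higher, 7 lower and 19 not called, and against siControl the numbers were 15, 7 and 13. Over all genes tested, 23.1% were higher and 37.3% lower against siZIP10, and 26.7% and 39.9% against siControl. Among activators of transcription, Zfp143, which drives snRNA and many other promoters, had 36.0 and 32.1 TPM in siControl plus DTPA, 26.7, 25.9 and 26.2 TPM in siZIP10, and 37.8, 38.6 and 38.2 TPM in siZIP10 plus DTPA, against 24.9, 26.4 and 29.9 TPM in siControl. Both DTPA groups stood above the groups without DTPA. Zfp143 rose with DTPA in siZIP10 cells (0.52, SE 0.06, limma adjusted p = 3.02e-05), while the 0.32 in siControl cells was lost without siControl plus DTPA replicate 1 (0.24, limma adjusted p = 0.0684). Its paralog Zfp523 averaged 10.8 ± 0.510 TPM in siZIP10 plus DTPA and 6.86 ± 0.274 TPM in siZIP10 (SD, n = 3 each), a rise of 0.58 (limma adjusted p = 3.95e-05). Zfp410 activates Chd4, which encodes a component of the NuRD complex that represses fetal globin genes. It had 32.1 and 31.1 TPM in siControl plus DTPA, 32.5, 31.9 and 32.5 TPM in siZIP10, and 23.4, 22.9 and 22.2 TPM in siZIP10 plus DTPA, against 35.0, 34.2 and 35.7 TPM in siControl. The doubly treated libraries were lowest, Zfp410 fell by 0.59 with both (SE 0.03, limma adjusted p = 5.63e-08), and the interaction was -0.34 (SE 0.05, limma adjusted p = 0.000505). Chd4 averaged 97.1 TPM in siControl plus DTPA, 106 TPM in siZIP10 and 90.1 TPM in siZIP10 plus DTPA, against 113 TPM in siControl (-0.32, limma adjusted p = 4.16e-05 with both). An exon of Zfp410 overlaps Gm47484. Zfp281, a regulator of pluripotency genes, was not called in any of the 6 comparisons (37.3, 36.9 and 40.5 TPM in siZIP10 plus DTPA, 38.9, 37.1 and 40.8 TPM in siControl).

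Among repressors and their partners, Zfp809, a KRAB protein that silences murine leukemia virus, had 57.5 and 57.5 TPM in siControl plus DTPA, 61.7, 57.4 and 63.9 TPM in siZIP10, and 65.0, 62.0 and 68.8 TPM in siZIP10 plus DTPA, against 49.7, 45.4 and 51.2 TPM in siControl. Every treated library stood above every siControl library, with log2 changes of 0.23 with DTPA, 0.32 with siZIP10 and 0.41 with both. The change with DTPA was lost without siControl plus DTPA replicate 1 or 2 (limma adjusted p = 0.078 and 0.08). Zfp445 was not called in any of the 6 comparisons (191, 183 and 188 TPM in siZIP10 plus DTPA, 181, 169.7 and 172 TPM in siControl). Zfp217, which works with CoREST and histone demethylase complexes, averaged 163 ± 6.13 TPM in siZIP10 plus DTPA, against 129 ± 3.36 TPM in siZIP10 (SD, n = 3 each; 0.34, limma adjusted p = 1.35e-05). Zfp644, a partner of the methyltransferases G9a and GLP, averaged 16.7 ± 0.302 TPM in siZIP10 plus DTPA, against 13.6 ± 1.00 TPM in siZIP10 (SD, n = 3 each; 0.28, limma adjusted p = 0.00152). Zfp703, a corepressor described in human breast cancer, averaged 23.0 ± 1.16 TPM in siZIP10 plus DTPA, against 17.1 ± 1.28 TPM in siZIP10 (SD, n = 3 each; 0.41, limma adjusted p = 0.000283). All 3 rose in siZIP10 plus DTPA.

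Among members that act on RNA or protein, Zfp346, which binds double-stranded RNA, had 75.4 and 76.2 TPM in siControl plus DTPA, 75.8, 71.7 and 75.8 TPM in siZIP10, and 57.4, 57.6 and 58.6 TPM in siZIP10 plus DTPA, against 71.8, 74.9 and 70.3 TPM in siControl. It was not called with either treatment alone and fell by 0.36 in siZIP10 plus DTPA against siZIP10 (SE 0.03, limma adjusted p = 3.65e-06), with an interaction of -0.42 (SE 0.05, limma adjusted p = 8.31e-05). Zfp830, a nuclear zinc finger protein, averaged 64.8 ± 3.13 TPM in siZIP10 plus DTPA, against 82.8 ± 3.17 TPM in siZIP10 (SD, n = 3 each), and fell (-0.35, limma adjusted p = 5.66e-05). Zfp451, a SUMO ligase, averaged 37.2 ± 0.783 TPM in siZIP10 plus DTPA, against 29.2 ± 0.887 TPM in siZIP10 (SD, n = 3 each), and rose (0.34, limma adjusted p = 8.87e-05). Zfp207 averaged 229 ± 3.12 TPM in siZIP10 plus DTPA, against 257 ± 11.6 TPM in siZIP10 (SD, n = 3 each), and fell (-0.17, limma adjusted p = 0.000725). Against siControl its -0.11 was lost with median-of-ratios scaling (-0.01). Zfp598, the ubiquitin ligase of collided ribosomes, averaged 36.3 TPM in siZIP10 plus DTPA and 41.4 TPM in siControl, and its -0.19 (limma adjusted p = 0.0128) was lost in 3 of 16 refits, among them those without siZIP10 plus DTPA replicate 2 (0.0511) or siControl replicate 2 (0.0547) (limma adjusted p in parentheses). Zfp622, a factor of ribosome maturation, averaged 17.3 TPM in siZIP10 plus DTPA, against 19.1 TPM in siZIP10, and its -0.14 (limma adjusted p = 0.0414) was lost in 9 of 16 refits, among them those without siZIP10 plus DTPA replicate 1 (0.113), siZIP10 plus DTPA replicate 3 (0.0894), siZIP10 replicate 1 (0.109), siZIP10 replicate 2 (0.103) or siControl replicate 2 (0.0526) (limma adjusted p in parentheses). Against siControl, at 18.6 TPM, it was not called (-0.10, limma adjusted p = 0.125).

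The proteins that KRAB zinc finger proteins recruit were followed from a list of 24 genes, of which 23 were tested. With DTPA 2 of them were higher and 11 lower, with siZIP10 1 and 12, and with both 3 and 14, against siControl each time, at medians of -0.19, -0.17 and -0.32 beside -0.04, -0.01 and -0.08 over all genes tested. Under median-of-ratios scaling 2 were higher and 10 lower with DTPA, 3 and 13 with siZIP10, and 6 and 14 with both. Over all genes tested, 9.98% were higher and 18.8% lower with DTPA, 13.1% and 17.5% with siZIP10, and 26.7% and 39.9% with both. For genes of at least 5 TPM in siControl these shares were 11.4% and 23%, 15.1% and 21.2%, and 26.1% and 47.7%. Their medians were -0.048, -0.024 and -0.125. Trim28, the corepressor itself, averaged 98.3 TPM in siControl plus DTPA, 109.6 TPM in siZIP10 and 84.9 TPM in siZIP10 plus DTPA, against 125 TPM in siControl (-0.55, limma adjusted p = 6.33e-07 with both). Cbx5, which encodes an HP1 protein, averaged 34.3 TPM in siControl plus DTPA, 35.4 TPM in siZIP10 and 13.1 TPM in siZIP10 plus DTPA, against 55.5 TPM in siControl (-2.00, limma adjusted p = 2.48e-11 with both). Both were lowest in the doubly treated cells. Uhrf1, which guides maintenance DNA methylation, averaged 3.81 TPM in siZIP10 plus DTPA, against 29.5 TPM in siControl (-2.66, limma adjusted p = 2.27e-10). Setdb1, the histone methyltransferase that TRIM28 recruits, averaged 69.9 TPM in siZIP10 plus DTPA and 67.2 TPM in siControl, which was not called (0.06, limma adjusted p = 0.247). Chd3, which encodes a NuRD component, was among the 3 that rose, to 61.9 TPM in siZIP10 plus DTPA, against 34.8 TPM in siControl (0.81, limma adjusted p = 1.81e-07).

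Other zinc finger families gave the following in siZIP10 plus DTPA against siZIP10. Of 30 Zbtb genes, whose zinc fingers are joined to a BTB domain, 11 were higher and 5 lower (12 and 3 under median-of-ratios scaling). Of 11 Klf and Sp genes 5 were higher and 3 lower (5 and 2), and of 10 Zscan genes 1 and 4 (2 and 3). Of 7 Zkscan genes 2 were higher and 3 lower, and of 21 Zc3h, Zmym, Zfhx and Zfpm genes 7 and 6. Of the 48 tested numbered genes under 5 TPM in siControl, 13 were higher and 6 lower. Over all genes tested, 23.1% were higher and 37.3% lower (29.9% and 31.5% under median-of-ratios scaling). The differences between these families and the numbered genes were not tested.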

How the data were processed

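Poly(A) RNA from G1E-ER4 cells was sequenced from a stranded library. The authors deposited TPM per gene for each library. The submitters' processing notes name Trimmomatic 0.33, FastQC, HISAT2 2.1.0, featureCounts, edgeR and mm10. Which settings, annotation and strand option they had is not given in the sources used here. Values that correspond to up to 20 reads came out whole within 0.1 read in 98.9% to 99.1% of cases, so reads per gene could be recovered from TPM as an alternative. The labels give a replicate number, and p-values measure only the spread between these libraries, which may be technical.

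Genes that averaged 1 TPM or more in the 11 libraries were tested on log2(TPM + 1) with limma 3.58.1 in R 4.3.3 (trend, 4 group means, two-sided, Benjamini-Hochberg adjustment over 11379 genes, threshold 0.05). A fold change on this scale understates the change of low genes. Alternatives were a pseudocount of 0.1 TPM, no filter, median-of-ratios scaling, a replicate block, voom on recovered reads, members chosen on the 8 libraries that are not siControl, and leaving out each library in turn. Tables, motif searches and figures used Python 3.11.15, numpy 2.4.6, pandas 2.3.3, matplotlib 3.10.9 and Biopython 1.88. Gene models came from GENCODE mouse release 21 (204 of 206 members matched by symbol) and promoters from RefSeq (GRCm38.p6).

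Members named with values were the 5 highest in siControl, in each comparison the 5 largest called changes in each direction (with groups that do not overlap, except for the interaction), the listed members of known role, of which a part is described, and those next to the limit of 5 TPM. Members and lists were chosen with earlier results of these data known. The lymphoid marker list is not reported here.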

Additional observations from a re-analysis of the deposited data

Results flagged for a closer look

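Among the 69 named members, 22 differed between siZIP10 cells and siControl cells in their change with DTPA, by the interaction term of limma (adjusted p under 0.05). Some members were named for the size of this interaction, so the number does not measure the class. The interaction was called in 23.8% of all members and in 32.4% of all genes tested. The DTPA change on the log2 scale in siZIP10 cells minus that in siControl cells was above 0 for Zfp27 (0.64), Zfp420 (0.53), Zfp345 (0.52), Zfp81 (0.46), Zfp36 (0.44), Zfp703 (0.36), Zfp526 (0.35), Zfp523 (0.34), Zfp329 (0.30), Zfp219 (0.28), Zfp451 (0.26) and Zfp217 (0.16). It was below 0 for Zfp59 (-0.65), Zfp266 (-0.60), Zfp972 (-0.52), Zfp444 (-0.47), Zfp773 (-0.43), Zfp346 (-0.42), Zfp948 (-0.34), Zfp410 (-0.34), Zfp930 (-0.31) and Zfp207 (-0.13). The call did not hold in 13 of 16 refits for Zfp972, 12 of 16 refits for Zfp207, 11 of 16 refits for Zfp930, 9 of 16 refits for Zfp217, 9 of 16 refits for Zfp523, 7 of 16 refits for Zfp81, 6 of 16 refits for Zfp526, 2 of 16 refits for Zfp329, 1 of 16 refits for Zfp219, 1 of 16 refits for Zfp345, 1 of 16 refits for Zfp451 and 1 of 16 refits for Zfp703. Leaving out siControl plus DTPA replicate 2 alone ended the call for Zfp207 (0.0806), Zfp217 (0.201), Zfp219 (0.0563), Zfp329 (0.0678), Zfp345 (0.0649), Zfp451 (0.0794), Zfp523 (0.155), Zfp526 (0.0907), Zfp703 (0.0813), Zfp81 (0.0563), Zfp930 (0.0887) and Zfp972 (0.132), with the limma adjusted p in parentheses. No group had 4 libraries, so single libraries were not tested as outliers.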

How the results depend on the processing

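Under median-of-ratios scaling the median log2 change of the members turned its sign in siControl plus DTPA against siControl, to 0.0093 (-0.03 with TPM), and kept it in the other 5 comparisons. It was 0.13, 0.082 and 0.13 in siZIP10 plus DTPA against siControl, siZIP10 and siControl plus DTPA. Voom on recovered reads gave 0.12, 0.069 and 0.13 for the last 3. Over all genes tested these medians were 0.0078, 0.0072 and 0.0090 with the scaling, and -0.018, -0.011 and 0.0026 with voom. Members called higher were 32 and 31 under these settings in siControl plus DTPA against siControl (20 with TPM) and 45 and 48 for the interaction (27 with TPM). The shares of all genes tested called higher moved too, to 14.3% and 14.0% in that comparison (9.98% with TPM). For the interaction they were 15.9% and 17.9% (12.0% with TPM). Members called lower were 20 without a filter in siControl plus DTPA against siControl (34 with it), and for the interaction 13 without a filter and 14 under median-of-ratios scaling (22 with TPM). Of all genes tested, 8.69% were lower without a filter in siControl plus DTPA against siControl (18.8% with it). For the interaction the shares were 9.88% without a filter and 18.6% under median-of-ratios scaling (20.4% with TPM).

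Leaving out 1 library each gave 6 to 21 members higher and 14 to 32 lower in siControl plus DTPA against siControl, 25 to 39 higher and 7 to 15 lower in siZIP10 against siControl, and 10 to 28 above and 14 to 18 below 0 for the interaction. The shares of all genes tested also moved, in the first of these to 6.09% to 10.0% higher and 11.5% to 18.7% lower. They were 9.85% to 12.8% and 13.7% to 17.4% in the second, and 8.32% to 11.7% and 15.8% to 19.7% for the interaction. The medians in siZIP10 plus DTPA against siZIP10 ran from -0.0076 to 0.032. The cause of these shifts was not tested.

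The replicate numbers gave no sign of a shared effect: deviations from the group means correlated at -0.0602 to 0.0607 in same-numbered libraries. With so few libraries per group this cannot show whether the samples were paired. With the replicate block, members higher and lower were 23 and 27 in siControl plus DTPA against siControl, 33 and 15 in siZIP10 against siControl, 78 and 54, 57 and 57, and 59 and 35 in siZIP10 plus DTPA against siControl, siZIP10 and siControl plus DTPA, and 26 and 20 for the interaction. Of 209 calls of named members, 139 held under every alternative run and 70 lost the threshold in at least 1, and 0 reversed. The fewest reads of a member in a library were 12, so changes of the lowest members are the least precise.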
